A study of Mus musculus with 4 samples.

Results

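Cell cycle genes carry a dividing cell through DNA replication and mitosis. The 34 genes described here were named by symbol from what is known of their function and not by a rule on measured values. Earlier results of these data were known when genes and lists were chosen. They are 34 of the 32285 genes in the count tables of this study of the ageing mouse ovary. Of the 34, 14 act at the entry into S phase or in DNA replication and are called G1/S genes here, and 20 act in G2 phase and mitosis and are called G2/M genes.

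The study set ovaries of 4 aged females (15 to 16 months old) against ovaries of 4 young females (3 to 4 months old), all outbred CD-1 mice that had aged naturally. One section of 10 µm per ovary was placed on a Visium slide, which catches the mRNA of the tissue on a grid of barcoded spots, so that each transcript is counted once as a UMI (unique molecular identifier) at a known place. Each of the 4 capture areas held 1 aged and 1 young section that shared a library, and both are numbered here by their area (aged section 1 and young section 1 lay in area 1). A spot covers several cells, so its counts mix cell types, and the animals, not the spots, are the replicates.

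The aged sections had 257 to 653 spots and 2777948 to 9506517 UMIs, and the young sections 532 to 762 spots and 9702600 to 21619232 UMIs. The 34 genes together took 65794 UMIs. The median UMIs per spot were 14058, 13004, 8779 and 14928 in aged sections 1 to 4, against 18728, 28120.0, 14988 and 19698 in young sections 1 to 4. In area 3 the labelled ages went against the other areas in oocyte markers. The summed level of 15 oocyte markers (zona pellucida and maternal-effect genes, all detected in every section) was 50.9, 53.1, 616 and 43.8 CPM (counts per 1000000 UMIs) in aged sections 1 to 4, against 697, 235, 48.1 and 290.2 CPM in young sections 1 to 4. In area 3 the sums of luteal, macrophage, lymphoid and erythrocyte markers also went against the other areas (luteal 20242 CPM aged, 36764 CPM young). Endothelium, theca and smooth muscle marker sums were lower in the aged section of every area. In area 3 the endothelium sum was 456 CPM in the aged and 829 CPM in the young section. Mitochondrial genes took a larger share of UMIs in the aged section of every area, 2.96 against 1.10% in area 3. Whether the sections of area 3 were exchanged was not tested, so the counts of genes called are given with and without that area.

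Entry into S phase is driven by cyclins D and E, which release E2F factors and so switch on the genes for DNA replication. Later in the cycle cyclins A and B with the kinase Cdk1, together with Plk1 and the Aurora kinases, drive mitosis, and the anaphase-promoting complex ends it by marking cyclin B and other proteins for destruction. In the ovary, the granulosa cells that surround the oocyte of a growing follicle divide, luteal cells have largely left the cycle, and the oocyte itself is arrested in the first meiotic division while it stores mRNAs of mitotic regulators for maturation.

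Promoters are shown for 5 of the genes because the G1/S and G2/M genes differ in letters there that are known from their control. They run from 250 bases before to 50 bases after the transcription start and come from RefSeq on GRCm38.p6 (mm10), which held a promoter for 27 of the 34 genes. The letters searched, on both strands, were TTTGAA (the cell cycle genes homology region, CHR), CCAAT (the CCAAT box), and the 4 E2F site forms TTTCCCGC, TTTGGCGC, TTTCGCGC and TTTGCCGC. Capitals mark a match to any of them, and matches can overlap, as they do in the Ube2c and Mcm6 promoters. Top2a and Ube2c stood high in the spots described below and held CHR and CCAAT letters, and Cdk1 held all 3 kinds. Mcm6 and Mcm3 held E2F and CCAAT letters and no CHR letters. Top2a lies at chr11:99024140-99024439 on the minus strand, Ube2c at chr2:164769679-164769978 on the plus strand, Cdk1 at chr10:69352863-69353162 on the minus strand, Mcm6 at chr1:128359656-128359955 on the minus strand and Mcm3 at chr1:20820263-20820562 on the minus strand.
Top2a: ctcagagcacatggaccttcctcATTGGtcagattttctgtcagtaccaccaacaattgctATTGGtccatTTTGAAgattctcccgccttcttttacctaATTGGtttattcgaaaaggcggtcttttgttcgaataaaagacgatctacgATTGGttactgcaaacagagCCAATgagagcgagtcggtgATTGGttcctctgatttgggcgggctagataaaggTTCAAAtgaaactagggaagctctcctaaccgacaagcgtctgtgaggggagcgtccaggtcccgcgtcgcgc
Ube2c: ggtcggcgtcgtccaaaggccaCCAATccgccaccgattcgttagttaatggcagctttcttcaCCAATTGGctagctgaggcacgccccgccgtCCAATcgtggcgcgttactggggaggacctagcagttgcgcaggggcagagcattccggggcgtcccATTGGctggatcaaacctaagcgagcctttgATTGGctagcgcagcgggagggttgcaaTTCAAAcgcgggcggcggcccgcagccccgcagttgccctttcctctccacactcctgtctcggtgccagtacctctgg
Cdk1: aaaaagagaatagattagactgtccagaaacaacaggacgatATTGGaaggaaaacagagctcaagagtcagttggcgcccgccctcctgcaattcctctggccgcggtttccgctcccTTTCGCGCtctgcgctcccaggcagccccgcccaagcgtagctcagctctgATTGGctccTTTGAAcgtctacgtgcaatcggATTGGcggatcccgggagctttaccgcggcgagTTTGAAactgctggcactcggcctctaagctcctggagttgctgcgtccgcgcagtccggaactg
Mcm6: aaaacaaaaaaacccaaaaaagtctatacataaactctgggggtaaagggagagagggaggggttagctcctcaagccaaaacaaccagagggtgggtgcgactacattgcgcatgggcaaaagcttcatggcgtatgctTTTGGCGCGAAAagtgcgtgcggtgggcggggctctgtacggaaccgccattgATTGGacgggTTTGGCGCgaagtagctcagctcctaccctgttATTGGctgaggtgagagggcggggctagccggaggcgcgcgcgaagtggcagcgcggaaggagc
Mcm3: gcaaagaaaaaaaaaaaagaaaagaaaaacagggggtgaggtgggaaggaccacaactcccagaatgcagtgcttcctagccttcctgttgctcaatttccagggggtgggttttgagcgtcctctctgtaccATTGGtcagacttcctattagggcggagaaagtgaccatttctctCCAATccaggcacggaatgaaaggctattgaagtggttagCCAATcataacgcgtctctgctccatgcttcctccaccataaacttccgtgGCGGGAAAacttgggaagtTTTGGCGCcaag

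Of the G2/M genes with a promoter, 12 of 16 (75%) held the CHR letters, among them Ccnb2, Cdk1, Plk1, Cdc20, Ube2c, Top2a and Mki67. Of the G1/S genes, 1 of 11 (9.09%) did, which was Mcm2, and 20.2% of all 27025 genes with a promoter of the same length did. The E2F letters stood in 5 of 11 G1/S promoters (45.5%) and in 1 of 16 G2/M promoters (6.25%), that of Cdk1, against 2.6% of all genes. CCAAT letters were found in 14 of 16 G2/M promoters (87.5%), in 8 of 11 G1/S promoters (72.7%) and in 41.1% of all genes. A match describes the letters in this window and is not a measured site.

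In whole sections, the same 2 sections were highest for each of the 34 genes, whatever their role. Aged section 3 was highest of the 8 for 29 genes and young section 1 for the other 5. Relative to the median of the other 3 aged sections, the level in aged section 3 was 1.76 to 6.70 times as high, with a median of 4.19 over the 34 genes. Young section 1 was 1.50 to 4.36 times as high as the median of the other 3 young sections, with a median of 2.57. The 20 G2/M genes summed to 249.7, 209, 1022 and 237 CPM in aged sections 1 to 4, against 752, 368, 158 and 270.3 CPM in young sections 1 to 4. The 14 G1/S genes summed to 338, 317, 815 and 365 CPM in the aged sections, against 684, 404, 297 and 342 CPM in the young sections. The ages overlapped in both sums, and the G2/M sum varied more between sections than the G1/S sum: the ratio of G2/M to G1/S was 0.739, 0.659, 1.25 and 0.650 in aged sections 1 to 4, against 1.10, 0.911, 0.531 and 0.791 in young sections 1 to 4. The 2 sections in which that ratio passed 1 were also the 2 with the highest oocyte marker sums, and young section 3, with the lowest ratio, had one of the low oocyte marker sums. In a bulk sum over a section, fewer dividing cells and less RNA per dividing cell cannot be told apart.

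**Figure D1:**
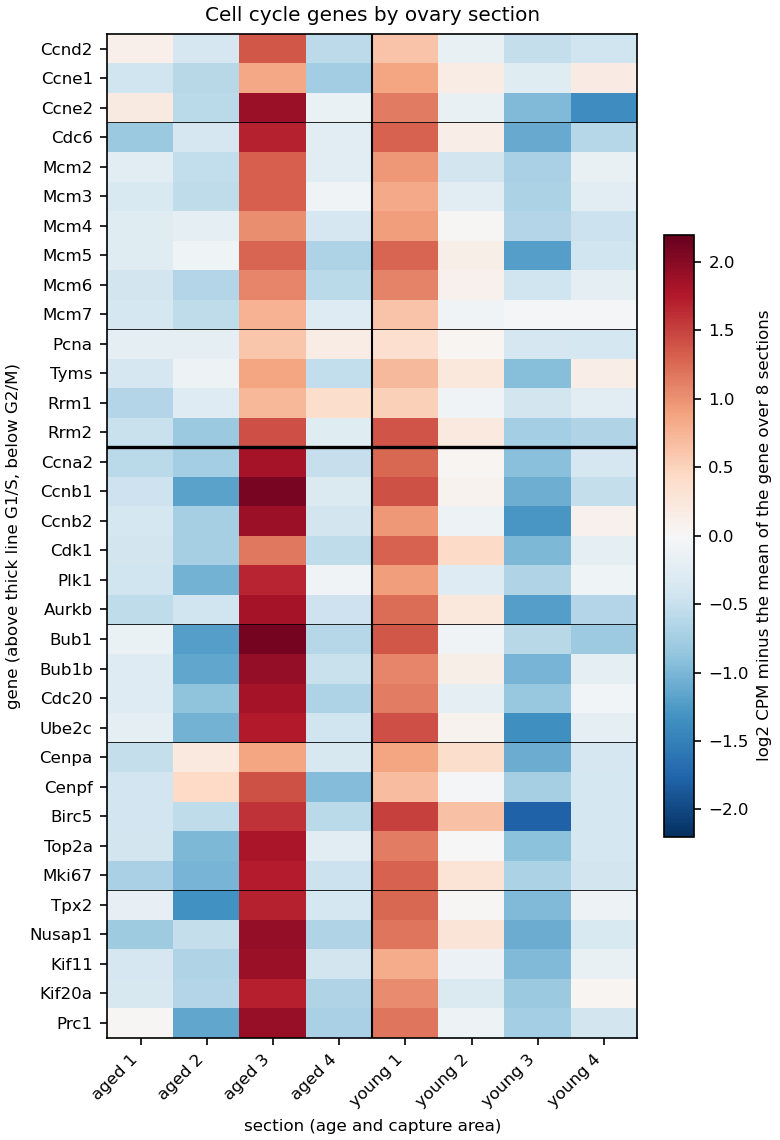
Level of each of the 34 genes (rows, ordered by role) in the 4 aged sections (left) and the 4 young sections (right), drawn as the difference in log2 CPM from the mean of that gene over the 8 sections, so that colours show a difference and not a level. The columns of aged section 3 and young section 1 are the highest in every row, and no row separates the ages.

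The G1 cyclins bind and activate the kinases that push a cell towards S phase. Ccnd2, the D-type cyclin known from mouse granulosa cells (chr6:127125162-127152193, minus strand, GENCODE M21 on mm10), stood at 54.5, 38.8, 129.6 and 33.6 CPM in aged sections 1 to 4, against 77.7, 45, 34.8 and 37.0 CPM in young sections 1 to 4. Ccne1 and Ccne2 encode the E-type cyclins that act just before S phase, and Ccne1 stood at 2.37, 2.10, 5.76 and 1.90 CPM in aged sections 1 to 4, against 5.82, 3.61, 2.68 and 3.65 CPM in young sections 1 to 4. The level of Ccne2 was 2.57, 1.47, 8.28 and 2.02 CPM in aged sections 1 to 4, against 4.94, 1.99, 1.13 and 0.868 CPM in young sections 1 to 4. All 3 were highest in aged section 3 or young section 1, and their ages overlapped.

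The licensing genes load and form the replicative helicase, with Cdc6 as its loader and the 6 Mcm genes as its subunits. Mcm3 was counted at 15.6, 13.4, 48.6 and 18.6 CPM in aged sections 1 to 4, against 35.1, 16.4, 12.2 and 16.6 CPM in young sections 1 to 4. Mcm6 was at 30.6, 25.9, 85.0 and 26.5 CPM in aged sections 1 to 4, against 86.1, 42.8, 29.8 and 35.2 CPM in young sections 1 to 4. For Mcm7 (chr5:138164583-138172422, minus strand) the levels were 45.4, 40.2, 100.4 and 48.8 CPM in aged sections 1 to 4, against 91.2, 56.4, 57.7 and 58.1 CPM in young sections 1 to 4. Aged section 3 and young section 1 were on top for all 3, and outside aged section 3 Mcm7 lay at 56.4 CPM or more in the young sections and at 48.8 CPM or less in the aged ones. Mcm4 was at 14.4 to 37.4 CPM in the aged sections, against 11.9 to 35.1 CPM in the young sections, and Mcm5 at 11.6 to 45.4 CPM in the aged sections, against 8.04 to 45.5 CPM in the young sections. The licensing genes other than Mcm3, Mcm6 and Mcm7 ranged from 1.44 to 58.3 CPM and had the same 2 sections on top. Mcm7 overlaps Cops6 and Ap4m1, and with the strand setting of the counting not given in the sources used here, its counts are uncertain to that extent.

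Among the enzymes and factors of S phase, Pcna is the sliding clamp of the DNA polymerases, Tyms makes thymidylate, and Rrm1 and Rrm2 are the subunits of ribonucleotide reductase. Pcna was present at 80.7, 79.9, 142 and 103 CPM in aged sections 1 to 4, against 120.0, 96.1, 71.7 and 70.7 CPM in young sections 1 to 4. Tyms stood at 18.2, 21.7, 42.5 and 16.0 CPM in aged sections 1 to 4, against 38.4, 27.3, 12.3 and 25.7 CPM in young sections 1 to 4. Rrm1 was counted at 27.4, 35.2, 71.6 and 56.1 CPM in aged sections 1 to 4, against 62.1, 41.0, 32.7 and 36.9 CPM in young sections 1 to 4. Pcna had the smallest spread of the 34 genes between aged section 3 and the other aged sections (1.76 times their median), and Rrm2 followed the common order with 29.9 and 29.1 CPM in aged section 3 and young section 1.

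Mitosis is started by Cdk1 with cyclins A and B. Cdk1 (chr10:69335146-69352938, minus strand) was measured at 25.3, 20.1, 75.2 and 22.9 CPM in aged sections 1 to 4, against 81.9, 45.1, 16.8 and 29.2 CPM in young sections 1 to 4. Ccnb2, a B-type cyclin, was at 11.8, 9.36, 57.6 and 11.7 CPM in aged sections 1 to 4, against 30.1, 14.4, 6.39 and 16.6 CPM in young sections 1 to 4. Plk1, a kinase of centrosome maturation and of mitotic entry, was at 7.90, 5.15, 34.2 and 10.1 CPM in aged sections 1 to 4, against 20.1, 8.79, 6.70 and 10.0 CPM in young sections 1 to 4. Cdk1 was one of the 5 genes highest in young section 1, while Ccnb2 and Plk1 were highest in aged section 3, and the ages overlapped for each. Ccna2, Ccnb1 and Aurkb had the same 2 sections on top, at 33.5 to 52.9 CPM in aged section 3 and 22.0 to 35.7 CPM in young section 1.

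The spindle checkpoint kinases Bub1 and Bub1b delay anaphase until all chromosomes are attached, and Cdc20 and Ube2c are the activator and the ubiquitin-conjugating enzyme of the anaphase-promoting complex. Bub1 stood at 3.55, 1.68, 16.9 and 2.53 CPM in aged sections 1 to 4, against 10.1, 3.70, 2.58 and 2.26 CPM in young sections 1 to 4. Bub1b stood at 6.71, 3.68, 31.0 and 5.81 CPM in aged sections 1 to 4, against 17.2, 8.88, 4.02 and 7.0 CPM in young sections 1 to 4. Cdc20 was at 11.6, 7.68, 50.04 and 8.84 CPM in aged sections 1 to 4, against 30.8, 12.3, 7.94 and 13.5 CPM in young sections 1 to 4. These 3 had aged section 3 far above the rest and young section 1 next. Ube2c (chr2:164769898-164778822, plus strand) was at 41.7, 23.6, 162 and 35.4 CPM in aged sections 1 to 4, against 128, 50.8, 18.9 and 42.0 CPM in young sections 1 to 4, so that its lowest section, young section 3, differed by a wide margin from its highest, aged section 3.

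Of the chromosome and centromere genes, Top2a untangles DNA, Birc5 (survivin) belongs to the chromosomal passenger complex with Aurkb, Cenpf and Cenpa are kinetochore and centromere proteins, and Mki67 coats mitotic chromosomes. Top2a (chr11:98992943-99024189, minus strand) had 19.3, 12.9, 88.9 and 21.7 CPM in aged sections 1 to 4, against 55.9, 25.9, 13.7 and 19.5 CPM in young sections 1 to 4. Birc5 had 18.6, 16.8, 74.9 and 16.4 CPM in aged sections 1 to 4, against 70.5, 38.6, 7.21 and 19.0 CPM in young sections 1 to 4. Cenpf had 6.91, 12.6, 24.5 and 4.80 CPM in aged sections 1 to 4, against 14.9, 9.11, 5.57 and 7.12 CPM in young sections 1 to 4. For Cenpf, aged section 2 was also above aged sections 1 and 4, whereas Top2a and Birc5 had aged sections 1, 2 and 4 close together. Mki67, the gene of the Ki-67 antigen used to stain dividing cells, ranged from 8.52 to 57.2 CPM in the aged sections and from 10.6 to 42.3 CPM in the young sections.

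The spindle and cytokinesis genes include the motors Kif11 and Kif20a, the microtubule proteins Tpx2 and Nusap1, and Prc1, which bundles the microtubules of the central spindle. Kif11 was at 2.96, 2.42, 14.4 and 2.91 CPM in aged sections 1 to 4, against 6.79, 3.52, 1.96 and 3.42 CPM in young sections 1 to 4. Kif20a was at 5.13, 4.21, 21.6 and 4.17 CPM in aged sections 1 to 4, against 13.5, 5.27, 3.71 and 6.77 CPM in young sections 1 to 4. Prc1 was at 11.4, 5.05, 42.1 and 6.82 CPM in aged sections 1 to 4, against 25.3, 10.4, 6.70 and 8.51 CPM in young sections 1 to 4. Aged section 3 was highest for all 5 genes of this role, and the other 3 aged sections lay below young section 1 for each.

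Across age, no cell cycle gene passed the test in whole sections. Summed per section and fitted by edgeR's quasi-likelihood test with Benjamini-Hochberg adjustment over 14044 genes, 0 of 34 genes passed the adjusted threshold of 0.05, where 0% of all genes passed. At an unadjusted p under 0.05 the count was 0 of 34, against 2.79% of all genes, and DESeq2 called 0 of 34. The aged and young sections did not overlap for 0 of 34 genes, against 1.38% of all genes. The fitted log2 difference (aged minus young) was positive for 22 and negative for 12 of the 34, with a median of 0.11 beside a median of 0.01 over all genes. Ccne1 had the smallest p of the 34, with a log2 difference of -0.48 ± 0.40 (SE, n = 4 per age, adjusted p = 1.00 by edgeR). By the same fit Mcm7 had -0.21 ± 0.26, Cdk1 -0.38 ± 0.52, Pcna 0.15 ± 0.24, Cenpf 0.34 ± 0.49, Kif11 0.36 ± 0.59 and Bub1 0.21 ± 0.73.

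The sign of these differences turned on single sections. Without aged section 3, 1 of 34 genes had a positive difference and the median was -0.63, and without young section 1, 32 of 34 were positive with a median of 0.60. Without young section 3, 5 of 34 were positive (median -0.12), and without young section 4, 15 of 34 (median -0.04). Without capture area 3, 0 of 34 were positive and the median was -0.87, with 0 called and 14 of 34 at an unadjusted p under 0.05, where 8.92% of all 14134 genes were. In that fit Ccne1 had a log2 difference of -0.99 ± 0.33, Cdk1 -1.16 ± 0.35 and Bub1 -1.03 ± 0.59 (SE, n = 3 per age). Area 3 held the aged section with the highest G2/M sum (1022 CPM) and the young section with the lowest (158 CPM). Leaving it out thus lowers the aged level and raises the young one. With the capture area as a block, 17 of 34 were positive (median -0.01) and 0 were called.

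Within the sections, cell cycle transcripts were concentrated in spots rich in granulosa cell markers. Granulosa-marker-high spots were taken as the top 10% of all spots by 14 granulosa genes such as Inha, Fshr, Foxl2 and Cyp19a1, none of which is one of the 34, and numbered 418. They held 52.6, 12.5, 73.6 and 70.5% of the G2/M UMIs of aged sections 1 to 4, against 27.6, 21.9, 37.5 and 17.5% of those of young sections 1 to 4. The same spots held 23.0, 3.05, 42.7 and 17.2% of all UMIs of the aged sections, against 12.7, 7.01, 8.86 and 4.57% of all UMIs of the young sections. In each of the 8 sections the share of G2/M UMIs was thus above the share of all UMIs. The summed G2/M level was 571 to 1763 CPM with a median of 1003 in granulosa-marker-high spots of the 8 sections, against 84.2 to 623 CPM with a median of 211 in the rest of the same sections. The G1/S sum was 422 to 1326 CPM with a median of 803 in granulosa-marker-high spots, against 265 to 591 CPM with a median of 323 in the rest. Both sums were higher in the zone in 8 of 8 sections, though the ranges over sections overlapped.

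**Figure D2:**
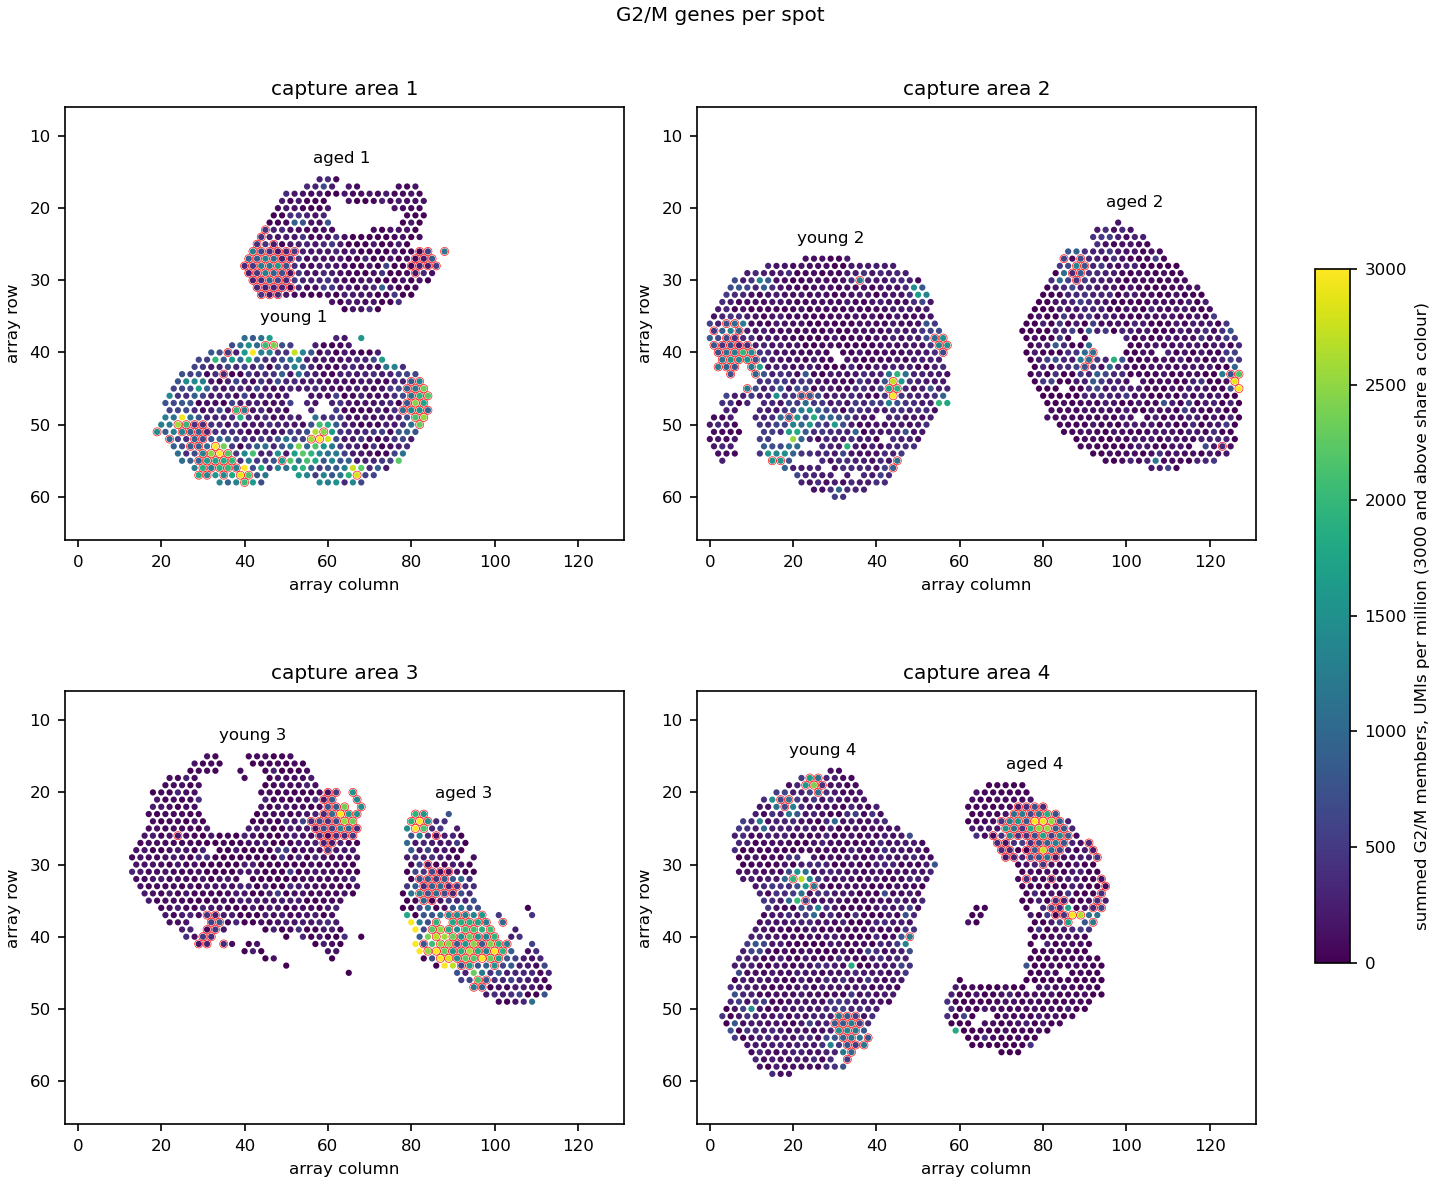
Summed level of the 20 G2/M genes in each spot, in CPM of that spot, drawn by array row and array column for the 4 capture areas with the aged and young sections named. Granulosa-marker-high spots are ringed in red, 87 of them in aged section 3 and 31 in young section 4, and spots with high levels lie in and beside the ringed patches.

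Every one of the 34 genes was called higher in granulosa-marker-high spots when no filter on low counts was used, against 9.83% of 22696 genes (edgeR's quasi-likelihood test with section as a block, Benjamini-Hochberg adjustment, 8 sections). The median log2 difference (zone minus rest) was 1.86 over the 34 genes, beside a median of -0.17 over all genes. With the filter, which Ccne1, Ccne2, Cdc6 and Kif11 did not pass, 30 of 30 were called higher, against 20.4% of 10657 genes. Without capture area 3, 33 of 33 that passed were called higher, against 15.8% of all genes. The median for G2/M genes without the filter was 2.10 and for G1/S genes 1.39. The median depth was 18576 UMIs per spot in granulosa-marker-high spots and 17696 in the rest.

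Of the 6 largest differences among the 30 genes that passed the filter, 5 belonged to genes of mitosis. Bub1 had 8.58 to 32.9 CPM with a median of 15.2 in granulosa-marker-high spots, against 0.458 to 7.27 CPM with a median of 1.97 in the rest. Its log2 difference was 2.81 ± 0.27 (SE, edgeR adjusted p = 1.78e-06), and its lowest zone value lay above its highest rest value. Top2a had 41.2 to 146 CPM with a median of 98.6 in granulosa-marker-high spots, against 4.73 to 45.8 CPM with a median of 14.5 in the rest. The difference of Top2a was 2.54 ± 0.25 (edgeR adjusted p = 1.84e-06), again in 8 of 8 sections, with overlap only from aged section 1 in the zone. Mki67 was at 24.0 to 94.6 CPM with a median of 63.0 in granulosa-marker-high spots, against 3.51 to 34.7 CPM with a median of 8.98 in the rest. The fitted difference of Mki67 was 2.37 ± 0.21, that of Ccnb1 2.33 ± 0.19, that of Ube2c 2.32 ± 0.18 and that of Rrm2, the regulated subunit of ribonucleotide reductase, 2.28 ± 0.20 (all called by edgeR). Ube2c reached 82.6 to 280.4 CPM with a median of 161 in granulosa-marker-high spots, against 11.9 to 106 CPM with a median of 28.7 in the rest.

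The smallest called differences belonged to the G1/S genes Pcna, Rrm1, Mcm7 and Tyms. Pcna had 79.8 to 234 CPM with a median of 145 in granulosa-marker-high spots, against 68.8 to 109 CPM with a median of 77.3 in the rest, a log2 difference of 0.70 ± 0.15 (edgeR adjusted p = 0.00200). Rrm1 differed by 0.73 ± 0.16 and Mcm7 by 0.91 ± 0.12. Ccnd2 was at 60.9 to 213 CPM with a median of 107 in granulosa-marker-high spots, against 18.5 to 67.2 CPM with a median of 38.4 in the rest, a log2 difference of 1.37 ± 0.18. In the rest, Pcna stood at 68.8 CPM or more in each of the 8 sections.

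**Figure D3:**
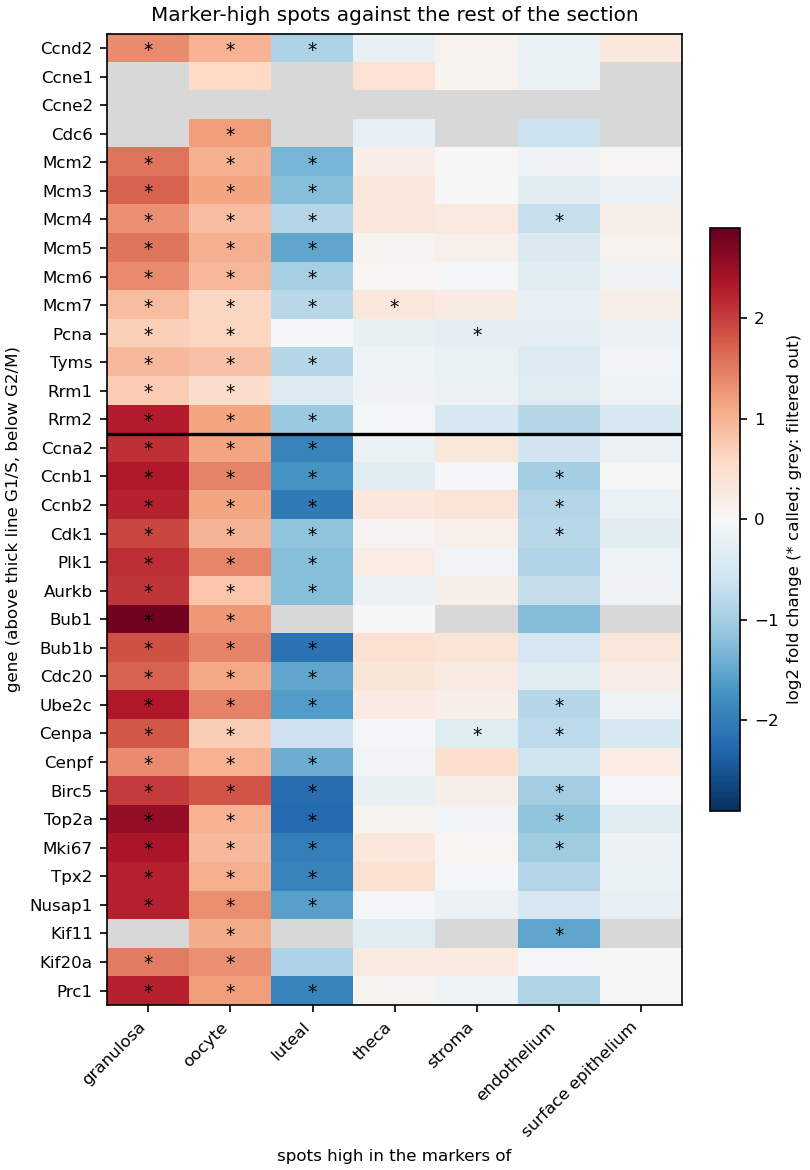
Log2 difference (zone minus rest of the same sections) of the 34 genes (rows, by role) in 7 zones of spots, each the top 10% of spots by the markers of one cell type. Genes that did not pass the low-count filter in a zone are grey and a star marks a called gene; every value drawn is positive in the granulosa and oocyte columns and negative in the luteal column, and the stroma column runs from -0.45 to 0.50.

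At the level of single spots, thinned to 5000 UMIs each so that depth is equal, Ube2c had a UMI in 54.9 ± 13.6% of granulosa-marker-high spots (SD, n = 8 sections), against 15.8 ± 11.2% of the rest (8 sections) and 9.19 ± 10.0% of luteal-marker-high spots (7 sections). Without thinning the shares were 84.4 ± 11.7%, 35.0 ± 18.5% and 31.7 ± 17.2%. Top2a had a UMI in 36.5 ± 10.7% of thinned granulosa-marker-high spots, against 8.23 ± 5.14% of the rest and 4.28 ± 3.11% of luteal-marker-high spots. Before thinning, the median number of the 34 genes seen in a spot was 17 in granulosa-marker-high spots, 6 in the rest and 6 in luteal-marker-high spots, although the last were the deepest at 25957.5 UMIs. Thinning left out 16 granulosa-marker-high spots, all in aged sections, and 356 of the rest, 248 of them in aged sections.

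Averaged over sections, the level of the G2/M genes was lower the farther spots lay from granulosa-marker-high spots. The summed G2/M level averaged 1082 ± 427 CPM in these spots (SD, n = 8 sections), 523 ± 319 CPM in spots 1 step away on the array, 314 ± 209.8 CPM at 2 steps, 239 ± 154 CPM at 3 to 4 steps and 183 ± 88.1 CPM at 5 steps or more. Over the same steps the G1/S sum averaged 841 ± 336, 493 ± 186, 383 ± 133, 341 ± 84.9 and 313 ± 46.1 CPM. The granulosa marker sum was 12855 ± 4323 CPM in the zone, 3634 ± 796 CPM at 1 step and 1649 ± 464 CPM at 5 steps or more. Between the zone and 1 step, aged section 4 and young section 3 had the largest G2/M ratios, with 972 and 668 CPM in the zone and 198 and 139 CPM at 1 step, and young section 1 the smallest, with 1639 CPM in the zone and 1064 CPM at 1 step. Farther out the order was not kept in every section, since aged section 1 had 114 CPM at 2 steps and 176 CPM at 3 to 4 steps, and aged section 4 and young section 3 had 64.4 and 105 CPM at 5 steps or more, against 54.7 and 102 CPM at 3 to 4 steps. The marker sum moved with the cell cycle genes over these steps, and its part in the gradient was not tested.

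**Figure D4:**
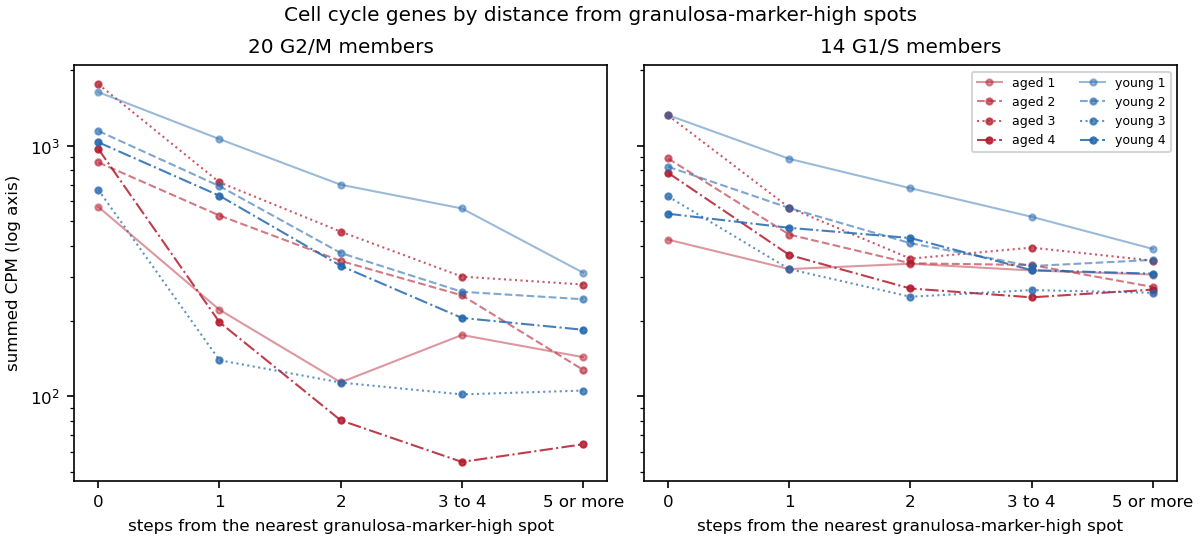
Summed G2/M level (left) and G1/S level (right) in CPM by array steps from the nearest granulosa-marker-high spot, with a line for each aged and each young section. The G2/M lines drop from the zone to 5 steps or more in each of the 8 sections, and aged section 3 and young section 1 start highest.

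Spots rich in oocyte markers were the other place with high levels. Oocyte-marker-high spots, again 418, numbered at least 10 in 5 sections, and 97 of them were also granulosa-marker-high. Aged section 2 had only 13 oocyte-marker-high spots, in which 1 UMI was worth 5.90 CPM. Birc5 had 64.9, 142, 132, 119.8 and 61.7 CPM in oocyte-marker-high spots of aged sections 2 and 3 and young sections 1, 2 and 4, against 16.0, 40.7, 48.8, 29.7 and 14.1 CPM in the rest of the same sections. Its log2 difference was 1.83 ± 0.13 (SE, edgeR's quasi-likelihood test with section as a block, adjusted p = 3.54e-07), and it was higher in the zone in 5 of 5 sections. The granulosa marker sum was higher there too, at 5302, 8331, 4357, 3706 and 3323 CPM in oocyte-marker-high spots of these sections, against 1205, 4421, 3177, 2239 and 2623 CPM in the rest, and its part in the difference was not tested. Without the low-count filter, 33 of 34 genes were called higher in this zone, against 6.67% of 22152 genes, and the median log2 difference was 1.01 beside -0.10 over all genes. With the filter 33 genes passed and 32 were called higher, against 8.51% of all genes, and Ccne1, with 0.57 ± 0.32, was not called. Without capture area 3, 26 of 34 genes were called higher, against 8.08% of all genes.

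The B-type cyclin Ccnb1 had 23.6, 88.9, 50.7, 27.8 and 22.1 CPM in oocyte-marker-high spots of aged sections 2 and 3 and young sections 1, 2 and 4, against 4.82, 29.8, 23.8, 10.6 and 6.51 CPM in the rest of the same sections. Its log2 difference was 1.43 ± 0.16, and Ube2c, Bub1b, Plk1 and Nusap1 differed by 1.45 ± 0.23, 1.45 ± 0.23, 1.41 ± 0.20 and 1.34 ± 0.26 (SE, edgeR). Bub1b had 23.6, 64.3, 25.9, 19.3 and 17.0 CPM in oocyte-marker-high spots of aged sections 2 and 3 and young sections 1, 2 and 4, against 3.32, 14.1, 14.2, 7.74 and 5.87 CPM in the rest of the same sections. The smallest called differences were again those of Rrm1 (0.50 ± 0.13), Mcm7 (0.60 ± 0.17) and Pcna (0.61 ± 0.18), and those of Mcm7 and Pcna were not called without area 3.

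Since follicles hold both cell types, spots were also set apart by the 2 lists. At least 10 spots high in both lists lay in aged section 3 and young sections 1 and 2, where their G2/M sum was 2010.3, 1735 and 899 CPM. In the same sections it was 1331, 1038 and 648 CPM in spots high in oocyte markers only, and 1306, 1587 and 1201 CPM in spots high in granulosa markers only. Spots high in both lists thus had the highest sum in aged section 3 and young section 1 but not in young section 2. The 3434 spots high in neither averaged 233 ± 138 CPM (SD, n = 8 sections). Oocyte-marker-high spots were then compared with granulosa-marker-high spots, each without the spots in both, over 5 sections. Without the low-count filter 17 of 34 genes were called lower and 0 higher in oocyte-marker-high spots, against 4.04% of 19305 genes called lower. With the filter 29 genes passed, 10 were called lower, against 6.31% of all genes, and the median log2 difference was -0.57.

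Top2a had 27.0, 96.8, 68.9, 40.6 and 29.3 CPM in oocyte-marker-high spots of aged sections 2 and 3 and young sections 1, 2 and 4, against 77.8, 123, 138, 114 and 84.7 CPM in granulosa-marker-high spots of the same sections. It was lower with the oocyte markers in 5 of 5 sections, with a log2 difference of -1.25 ± 0.17 (SE, edgeR adjusted p = 0.000156). Aged section 2 had only 10 spots of the oocyte and 12 of the granulosa kind here. In these, 1 UMI was worth 9.01 and 4.32 CPM. Mki67 had 36.1, 66.6, 55.8, 28.7 and 21.5 CPM in oocyte-marker-high spots of aged sections 2 and 3 and young sections 1, 2 and 4, against 43.2, 91.4, 91.8, 97.2 and 68.9 CPM in granulosa-marker-high spots of the same sections. Aurkb, Tpx2, Mki67 and Cenpa had log2 differences of -1.27 ± 0.27, -1.25 ± 0.21, -1.24 ± 0.21 and -1.02 ± 0.16, and Rrm2 -0.97 ± 0.22. Birc5 had 45.1, 78.7, 119.8, 117 and 60.4 CPM in oocyte-marker-high spots of aged sections 2 and 3 and young sections 1, 2 and 4, against 82.2, 103, 119.6, 120.5 and 57.4 CPM in granulosa-marker-high spots of the same sections. Its difference of -0.14 ± 0.14 was not called, and it was 0.44 with the top 5% of spots. The count of 10 depended on the sections and on the zone threshold, since it was 19 without aged section 2, 14 without area 3 (against 4.85% of all genes) and 4 without young section 2, and it was 1 with the top 5% of spots and 25 with the top 20%.

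Most cell cycle genes were lower in spots rich in luteal markers than in the rest. Luteal-marker-high spots (by 9 genes such as Akr1c18, Lhcgr and Star) had 27.2 to 191 CPM with a median of 108 for the G2/M sum in 7 sections, against 173 to 1084 CPM with a median of 288 in the rest, and aged section 1 had no such spot. Without the low-count filter 29 of 34 genes were called lower, against 7.67% of 22585 genes, with a median log2 difference of -1.45 beside -0.23 over all genes. With the filter 29 genes passed and 25 were called lower, against 11.5% of all genes, and with the top 5% of spots 14 of 32 were. Top2a had 1.6 to 9.71 CPM with a median of 5.32 in luteal-marker-high spots, against 14.7 to 94.5 CPM with a median of 23.3 in the rest. Its log2 difference was -2.26 ± 0.23 (SE, edgeR adjusted p = 0.000163), and all 7 zone values lay below all 7 rest values. Birc5, Bub1b, Ccnb2, Mki67 and Tpx2 differed by -2.21 ± 0.31, -2.13 ± 0.36, -2.03 ± 0.28, -1.98 ± 0.32 and -1.95 ± 0.33. Pcna was among the genes not called, with a log2 difference of -0.07 ± 0.13. It had 65.0 to 104 CPM with a median of 75.7 in luteal-marker-high spots, against 70.8 to 146 CPM with a median of 94.7 in the rest. Aged sections 3 and 4 had only 15 luteal-marker-high spots each, so 1 UMI was worth 5.41 CPM in that zone of aged section 3. The rest of the sections in each zone comparison holds the spots of the other zones, so these comparisons share spots. Without capture area 3, 29 of 33 genes that passed were called lower, against 10.8% of all genes.

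Fewer cell cycle genes were called in the other zones. In endothelium-marker-high spots of 6 sections the G2/M sum was 108 to 281 CPM with a median of 168, against 163 to 800.4 CPM with a median of 256 in the rest. That rest holds the granulosa- and oocyte-marker-high spots. Spots high in neither of those lists had 83.7, 108 and 208 CPM in aged section 4 and young sections 3 and 4, below the 108, 133 and 281 CPM of the endothelium zone. In aged section 2 and young sections 1 and 2 they had 180, 488 and 275 CPM, above its 138, 243 and 198 CPM. With the filter 33 genes passed and 10 were called lower than in the rest, against 3.28% of all 12804 genes. The log2 difference was -1.53 ± 0.41 for Kif11, -1.16 ± 0.24 for Top2a, -1.03 ± 0.25 for Mki67, -1.01 ± 0.19 for Birc5, -0.98 ± 0.27 for Ccnb1 and -0.85 ± 0.25 for Ccnb2 (SE, edgeR). The count was 2 without young section 1, 5 without young section 2 and by DESeq2, and 18 of 34 without the filter, where 4.57% of all genes were called lower. Without area 3 it was 10 of 33, against 3.31% of all genes, and Ccnb2 was not called.

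In stroma-marker-high spots of 7 sections, 2 of the 30 genes that passed were called lower, Pcna (-0.28 ± 0.08) and Cenpa (-0.36 ± 0.12), against 10.9% of all 11978 genes, and 0 without area 3 or without any of young sections 1, 2 and 3, and 1 without aged section 2. Scaling by library size alone, under which the median of all genes was 0.08, called 2 genes higher and 0 lower. In theca-marker-high spots of 5 sections, Mcm7 had 57.1, 73.9, 107, 79.6 and 70.7 CPM in aged sections 1 and 4 and young sections 1, 2 and 4, against 43.4, 47.4, 88.7, 55.6 and 54.1 CPM in the rest. It was the 1 gene of 33 called higher (0.33 ± 0.10, SE, edgeR adjusted p = 0.0445), against 5.32% of 12630 genes, and it was not called without aged section 1 or 4 or without young section 2 or 4. Surface-epithelium-marker-high spots had 0 of 29 genes called by edgeR, where 14.2% of all genes were called in either direction, with 1 at an unadjusted p under 0.05, against 27.6% of all genes, and 0 by DESeq2.

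Within granulosa-marker-high spots, the G2/M sum was 571, 859, 1763 and 972 CPM in aged sections 1 to 4, against 1639, 1147, 668 and 1033 CPM in young sections 1 to 4. The G1/S sum in these spots was 422, 890.2, 1323 and 780.4 CPM in aged sections 1 to 4, against 1326, 825, 628 and 536 CPM in young sections 1 to 4. Aged section 3 and young section 1 were again the 2 highest, aged section 1 was the lowest in both sums, and the ages overlapped. The spots numbered 52, 15, 87 and 77 in aged sections 1 to 4, against 64, 45, 47 and 31 in young sections 1 to 4, which was 17.4, 2.31, 34.3 and 18.9% of the aged and 12.0, 6.16, 8.70 and 4.07% of the young spots.

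Of the 32 genes that passed the low-count filter in these spots, 0 were called with age by edgeR's quasi-likelihood test with Benjamini-Hochberg adjustment, where 0% of 10142 genes were, and 0 were at an unadjusted p under 0.05, against 4.11% of all genes. DESeq2 also called 0. Cdk1 had 52.4, 58.7, 119 and 97.8 CPM in aged sections 1 to 4, against 167, 128, 59.3 and 120.3 CPM in young sections 1 to 4. Its log2 difference (aged minus young) was -0.58 ± 0.36 (SE, n = 4 per age), the smallest p of the 32. Mki67 had 24.0, 34.5, 94.6 and 55.2 CPM in aged sections 1 to 4, against 94.6, 88.4, 52.4 and 70.9 CPM in young sections 1 to 4, a log2 difference of -0.57 ± 0.38. The lowest aged section lay below every young section for both genes, but aged sections 3 and 4 each lay above at least 1 young section. Kif20a differed by 0.59 ± 0.46, Mcm6 by -0.37 ± 0.43, Bub1 by -0.24 ± 0.45, Ccnd2 by 0.18 ± 0.37 and Pcna by 0.16 ± 0.35. Without the low-count filter 0 of 34 genes were called, against 0.168% of 18994 genes, and the difference was positive for 9 of 34 with a median of -0.09.

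Without capture area 3 all 32 genes that passed had a negative difference, with a median of -0.77, and 3 were called lower in aged sections, against 1.47% of 10165 genes. These were Mki67 (-1.26 ± 0.28, adjusted p = 0.0343), Cdk1 (-1.08 ± 0.24, adjusted p = 0.0370) and Cdc20 (-1.11 ± 0.26, adjusted p = 0.0387), from edgeR with 3 sections per age, and 16 of 32 were at an unadjusted p under 0.05, against 16.9% of all genes. Cdc20 had 18.9, 17.3, 88.7 and 26.5 CPM in aged sections 1 to 4, against 53.6, 38.3, 32.6 and 38.0 CPM in young sections 1 to 4. For Mki67, Cdk1 and Cdc20 alike, area 3 held the highest aged and the lowest young section in these spots. Leaving it out thus moves each difference down, and the calls depend on that choice. Without aged section 3 alone, 0 of 33 genes had a positive difference (median -0.56) and 0 were called, and without aged section 1 or young section 1, 28 of the genes were positive (medians of 0.14 and 0.23).

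The make-up of the granulosa-marker-high spots also differed between sections. Cyp19a1, the aromatase of large oestrogen-producing follicles, was at 349, 13.8, 7.6 and 213 CPM in this zone of aged sections 1 to 4, against 14.6, 1.32, 109 and 5.07 CPM in young sections 1 to 4. The oocyte marker sum in the zone was 46.3, 348, 889 and 123 CPM in the aged sections, against 721, 309, 216 and 404 CPM in the young sections. The sections with the highest Cyp19a1 (aged sections 1 and 4 and young section 3) had G2/M sums of 571, 972 and 668 CPM in the zone, while aged section 3 and young section 1, at 1763 and 1639 CPM, had low Cyp19a1 and the highest oocyte marker sums. Aged section 2 and young sections 2 and 4, also low in Cyp19a1, had 859, 1147 and 1033 CPM, so aged section 2 lay below aged section 4. Cyp19a1 is 1 of the 14 markers of the zone, and these did not all move together. Inha, Inhba, Inhbb, Fst, Grem1 and Nppc were also highest in aged sections 1 and 4 and young section 3. Amh was lowest there, at 0, 1.47 and 0 CPM, against 25.3 and 4.87 CPM in aged section 3 and young section 1. Fshr had 46.3, 54.4 and 52.4 CPM there, against 62.5 and 64.0 CPM in those sections, but was lowest in aged section 2 (34.5 CPM). The remaining markers did not divide the sections in this way. The part of these markers in the age comparison was not tested.

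**Figure D5:**
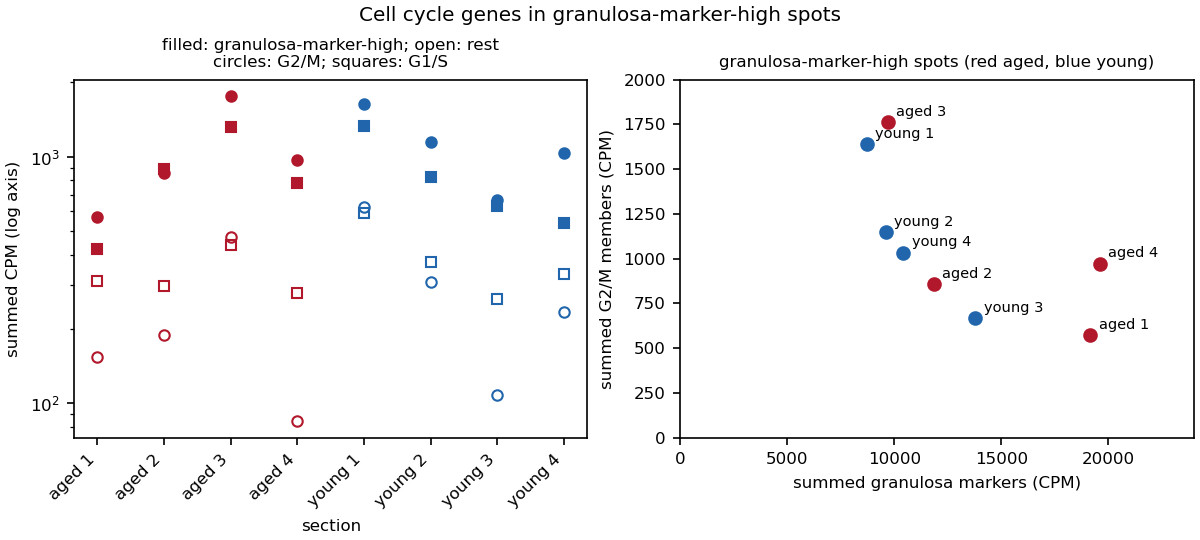
Left, summed G2/M level (circles) and G1/S level (squares) in CPM on a log axis for each aged section (red) and each young section (blue), in granulosa-marker-high spots (filled) and in the rest (open); every filled point lies above its open one, and the ages overlap. Right, summed G2/M level against the sum of the granulosa markers in granulosa-marker-high spots, both in CPM, 1 point per section, with aged section 3 and young section 1 highest in G2/M and at marker sums of 9694 and 8709 CPM.

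Whether the age difference itself differed between granulosa-marker-high spots and the rest was tested as an interaction (zone by age, section as a block), which is positive where the aged minus young difference is the larger one in the zone. By edgeR's quasi-likelihood test 0 of 33 genes were called, where 0% of 11550 genes were. At an unadjusted p under 0.05 there were 6, against 6.55% of all genes, and DESeq2 called 0. Kif20a had the smallest p, with an interaction of 1.23 ± 0.41 on the log2 scale (SE, edgeR adjusted p = 0.584), followed by Rrm2 at 0.86 ± 0.32 and Birc5 at 0.65 ± 0.27. Ube2c had 0.65 ± 0.30, Plk1 0.78 ± 0.41, Mcm2 0.46 ± 0.32 and Ccne1 -0.51 ± 0.56. Without the low-count filter 30 of 34 genes had a positive value, with a median of 0.32 beside 0.06 over all genes. With zones of the top 10% within each section, 18 of 34 were positive and the median was 0.01. Without area 3, 0 of 34 genes were called, against 0.369% of 12455 genes, 5 were at an unadjusted p under 0.05, against 11.5% of all genes, and 27 were positive with a median of 0.46. In that fit Prc1 had 1.36 ± 0.39, Rrm2 1.23 ± 0.33 and Ube2c 1.01 ± 0.32 (SE, n = 3 per age).

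Other genes of the same steps were followed in 2 lists of 36 genes each, chosen with the earlier results of these data known. In granulosa-marker-high spots, without the low-count filter, 34 of 36 other G2/M genes were called higher and 0 lower, and of 36 other G1/S genes 30 were called higher and 2 lower, against 9.83% of all genes called higher. The median log2 differences were 1.73 and 1.29. Racgap1, a cytokinesis protein, had 2.32 ± 0.20, Cdca8 of the chromosomal passenger complex 1.73 ± 0.15 and the condensin gene Smc2 1.72 ± 0.15. Of the G1/S list Gins1 and Gins2, of the replicative helicase, had 1.71 ± 0.18 and 1.48 ± 0.15, and the DNA ligase gene Lig1 1.50 ± 0.14.

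In oocyte-marker-high spots, 31 of the 36 other G2/M genes and 23 of the 36 other G1/S genes were called higher and 0 lower without the filter, against 6.67% of all genes called higher. In luteal-marker-high spots 25 other G2/M genes were called lower and 0 higher, and 14 other G1/S genes lower and 1 higher, against 7.67% of all genes called lower. With the filter and without area 3, 33 of 35 other G2/M genes and 28 of 34 other G1/S genes were called higher in granulosa-marker-high spots, 28 of 35 and 18 of 35 were called higher in oocyte-marker-high spots, and 22 of 34 and 13 of 33 were called lower in luteal-marker-high spots. The shares of all genes called in the same directions in these zones were 15.8, 8.08 and 10.8%. With oocyte markers, Uhrf1, a chromatin protein stored in mouse oocytes, was higher by 2.08 ± 0.18 on the log2 scale and Pttg1 (securin), which holds back anaphase, by 1.86 ± 0.17. Slbp and Chaf1a, for histone mRNA and chromatin assembly, were higher by 0.87 ± 0.11 and 1.41 ± 0.19, and Cdca8 and Kif23 by 1.26 ± 0.16 and 1.22 ± 0.17 (SE, all called by edgeR). Against granulosa-marker-high spots Ccnd3, a D-type cyclin, was higher by 0.72 ± 0.15, while Racgap1, Spc25 and Cks1b were lower, with log2 differences of -1.37 ± 0.22, -1.25 ± 0.24 and -0.67 ± 0.15. Gins1 was also lower, at -0.99 ± 0.28, and Lig1, at -0.62 ± 0.22, was not called, though it was without area 3. In luteal-marker-high spots Uhrf1, Prim1, Spc25 and Cenpe were lower, with log2 differences of -2.03 ± 0.34, -1.75 ± 0.34, -1.95 ± 0.30 and -1.95 ± 0.33, as were Gins2 and Kif23, with -1.20 ± 0.21 and -1.51 ± 0.24.

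In endothelium-marker-high spots, 0 of 33 other G2/M genes that passed the filter were called higher and 11 lower. Of 33 other G1/S genes 2 were called higher and 2 lower. Among all genes 5.24% were called higher and 3.28% lower. The D-type cyclins Ccnd1 and Ccnd3 were higher by 0.62 ± 0.18 and 0.31 ± 0.08 on the log2 scale, while Cdca3, Cks2, Pttg1 and Slbp were lower, with differences of -1.33 ± 0.26, -0.87 ± 0.18, -0.75 ± 0.15 and -0.47 ± 0.12. Without area 3 neither cyclin was called, and the other 4 genes were. In stroma-marker-high spots, 2 of 32 other G2/M genes were called higher and 0 lower. Of 32 other G1/S genes 1 was called higher and 1 lower. Among all genes 9.38% were called higher and 10.9% lower. Cdc25b, a phosphatase that activates Cdk1, Anln and Ccnd3 were higher by 0.80 ± 0.18, 0.70 ± 0.20 and 0.25 ± 0.09, and Gmnn (geminin), which blocks a second round of licensing, was lower, at -0.65 ± 0.16. The call of Ccnd3 was lost without area 3 and without the low-count filter. In theca-marker-high spots, 2 of 35 other G2/M genes were called higher and 2 lower. Of 33 other G1/S genes 0 were called higher and 2 lower. Among all genes 5.32% were called higher and 7.82% lower. There Gmnn, Rb1, Cks2 and Wee1 were lower, with differences of -0.78 ± 0.18, -0.68 ± 0.16, -0.51 ± 0.12 and -0.89 ± 0.22, and Anln, which shapes the cleavage furrow, was higher by 0.72 ± 0.18 (SE, all called by edgeR).

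In whole sections 0 of 36 genes of either list were called with age by edgeR, where 0% of all genes were, with 0 at an unadjusted p under 0.05. Without area 3, 35 of 36 other G2/M genes had a negative difference (median -0.69) and 7 were at an unadjusted p under 0.05, as against 30 of 36 other G1/S genes (median -0.48) with 1, beside 8.92% of all genes, and 0 were called. In granulosa-marker-high spots without area 3, 33 of 34 other G2/M genes were negative (median -0.70) with 12 at an unadjusted p under 0.05. Of the other G1/S genes 29 of 33 were negative (median -0.60) with 8 at that level. Of all 10165 genes 16.9% were at that level. In these lists 0 were called, against 1.47% of all genes called lower. The smallest p in each list were those of E2f2 (0.52 ± 0.36), Rb1 (0.23 ± 0.19) and Rbl2 (0.17 ± 0.17), and of Mad2l1 (0.57 ± 0.44), Cdc25b (-0.30 ± 0.27) and Anln (-0.37 ± 0.43). For the interaction the smallest p were those of E2f3 (-0.84 ± 0.35), Cdk6 (-0.75 ± 0.33) and Ccnd1 (1.10 ± 0.54), and of Pttg1 (0.86 ± 0.23), Kif2c (1.36 ± 0.41) and Hmmr (1.30 ± 0.56), none of them called, though Kif2c was without the low-count filter. For age in granulosa-marker-high spots they were those of Ccnd1 (0.97 ± 0.52), Dbf4 (-0.57 ± 0.33) and Cdc45 (-0.73 ± 0.52), and of Kif2c (0.58 ± 0.28), Cdc25b (-0.50 ± 0.28) and Foxm1 (-0.55 ± 0.37). The values for age are log2 differences, aged minus young, and edgeR called none of them, and that of Mad2l1 turned to -0.17 without area 3.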

How the data were processed

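The authors deposited, for each of the 4 capture areas, a table of UMI counts per gene and spot and the spot positions. Space Ranger 1.2.1 and mm10 are named in the submitters' processing notes, and the sources used here name neither the annotation nor the strand setting. Of 4263 spots over tissue, 4191 had a column in the deposited count tables and 72 had none, and 4173 had at least 500 UMIs. The labels say which side of an area is aged, and each area was divided where spots left the widest gap, searched over the central 60% of the pixel range.

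Counts were summed per section, or per section and zone, and expressed as CPM, counts per 1000000 UMIs. A zone was the top 10% of all spots by the mean log2(counts per 10000 + 1) over the markers of one cell type, and a section entered with at least 10 spots inside and outside. Sums were tested with edgeR 4.0.16 in R 4.3.3 (TMM scaling, filterByExpr, quasi-likelihood F test, Benjamini-Hochberg adjustment over all genes fitted, threshold 0.05), with age alone or with section as a block, and SE was the absolute log2 difference over the square root of F. The alternatives were RLE and library size scaling, DESeq2 1.42.0, no filter, a block for capture area, leaving out each section or area 3, a k-means split, other zone thresholds and another score. Tables were handled in Python 3.11.15 with pandas 2.3.3 and numpy 2.4.6.

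The labels tie same-numbered sections through a shared capture area and library. Deviations from the age means over 9758 genes correlated at -0.09 to 0.25 within an area, and the area block is given where it changes a count.

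On simulated data with known changes, the whole-section fit over 13813 genes recovered 20.2% of 2-fold and 77.8% of 4-fold changes, with 11.8% of its calls false. The fit of granulosa-marker-high spots against the rest recovered 92.9% and 100% over 10458 genes, and that of age within them 19.4% and 97.0% over 9909 genes. UMIs limit precision through counting. As each ovary gave a single section, the spread over sections mixes animal, plane of section and capture area, and the SE comes from the fitted model.

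All 34 genes are described. Those given in every section had 1 of the 3 smallest p of their role in the age comparison or 1 of the 6 highest levels, zone comparisons name the 6 largest called differences and any called in the opposite direction, and each pathway list its 3 smallest p. Genes and lists were chosen with earlier results of these data known. Mcm7, Cdc20, Ccna2, Kif20a, Prc1, Ccne2, Nusap1, Ube2c and Ccnd2 overlap other genes of the count tables, Rrm1, Plk1, Cenpf, Top2a, Mki67, Tpx2 and Kif11 overlap annotated genes outside them, and Pcna, Tyms, Ccnb1 and Ccnb2 have annotated pseudogenes, so their counts are uncertain to that extent.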

Additional observations from a re-analysis of the deposited data

Results flagged for a closer look

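Among 68 groups of 4 sections (34 genes at 2 ages), 27 had a section that stood apart by Dixon's criterion. For normally distributed values chance gives this in about 1 in 20 groups. The criterion was applied to CPM without a log, for which that rate need not hold. In 26 of the 27 the section that stood apart was aged section 3, and the 26 are not independent, since 1 section gives all of them. Of the G1/S genes its levels were 5.76 CPM for Ccne1, 8.28 CPM for Ccne2, 10.1 CPM for Cdc6, 58.3 CPM for Mcm2, 48.6 CPM for Mcm3, 37.4 CPM for Mcm4, 85.0 CPM for Mcm6, 100.4 CPM for Mcm7 and 29.9 CPM for Rrm2.

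Of the mitotic kinases and cyclins, aged section 3 had 52.9 CPM of Ccna2, 49.7 CPM of Ccnb1, 57.6 CPM of Ccnb2, 75.2 CPM of Cdk1, 34.2 CPM of Plk1 and 33.5 CPM of Aurkb. Checkpoint and anaphase genes stood at 16.9 CPM for Bub1, 31.0 CPM for Bub1b, 50.04 CPM for Cdc20 and 162 CPM for Ube2c. Chromosome and spindle genes stood at 74.9 CPM for Birc5, 88.9 CPM for Top2a, 57.2 CPM for Mki67, 39.96 CPM for Tpx2, 25.9 CPM for Nusap1, 14.4 CPM for Kif11 and 21.6 CPM for Kif20a.

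The remaining case was Mcm7 in young section 1, at 91.2 CPM. Aged section 3 had the fewest spots (257) and the lowest UMI total (2777948), and 34.3% of its spots were granulosa-marker-high. The part of these in its levels was not tested.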

How the results depend on the processing

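Over the alternatives run, the count of genes called stayed at 0 for age in whole sections, for the interaction and in surface epithelium, and at 30 to 33 in granulosa-marker-high and 26 to 31 in oocyte-marker-high spots with a section left out. The capture area as a block, the pairing of same-numbered sections, left 0 called with age in whole sections (17 of 34 positive) and 0 in granulosa-marker-high spots (12 of 32 positive, median -0.06).

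Of oocyte-marker-high against granulosa-marker-high spots, 10 genes were called, with 17 without the filter, 1 and 25 with the top 5% and 20% of spots, 20 with the summed share as score, and 4 to 19 leaving out a section. In luteal-marker-high spots 25 were called, 14 with the top 5%, and 21 to 27 leaving out a section. Endothelium gave 10, with 5 by DESeq2, 18 without the filter, 24 with the top 20%, 17 with the share score and 2 to 15 leaving out a section. Stroma gave 2 lower, with 1 by DESeq2, 0 without area 3, 1 higher with the top 5%, 1 within each section, 2 higher with the share score and 0 to 2 leaving out a section. Theca gave 1, with 0 by DESeq2, without the filter or with the top 5%, 6 within each section, 3 with the share score and 0 to 1 leaving out a section. Age in granulosa-marker-high spots gave 0, and 3 without area 3.

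Signs turned as follows. Without area 3 the whole-section log2 differences were -0.27 for Cenpf, -0.0874 for Pcna, -0.68 for Kif11, -1.03 for Bub1 and -0.17 for Mad2l1, and leaving out a section gave -0.88 to 0.11 for Cdk1, -0.0734 to 0.67 for Cenpf, -0.45 to 0.76 for Kif11, -0.81 to 0.91 for Bub1 and -0.0109 to 0.85 for Mad2l1. In granulosa-marker-high spots they were -0.20 for Kif20a, -0.43 for Ccnd2 and -0.33 for Pcna without area 3, -0.0333 for Kif20a with the top 20%, -0.0691 for Ccnd2 with the top 5% and 0.0268 for Cdc20 with the share score. Leaving out a section there gave -0.00514 to 1.03 for Kif20a, -0.94 to 0.0598 for Bub1, -0.29 to 0.43 for Ccnd2, -0.14 to 0.42 for Pcna and -0.96 to 0.19 for Cdc20. The interaction of Rrm2 was -0.00276 with the top 5%, Mcm7 in theca -0.0207 with the share score, and Birc5 between oocyte-marker-high and granulosa-marker-high spots 0.44 with the top 5%. Pcna in luteal-marker-high spots was 0.11 with the top 5%, 0.17 with the share score and -0.12 to 0.0363 leaving out a section. The cause was not tested. Leaving out area 3 removes the aged section with the highest G2/M sum and the young section with the lowest. Of the remaining values of single genes, 1992 kept direction and call, 111 lost and 17 gained a call.

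Limits. With 4 animals per age and 2-fold changes recovered in 20.2% of simulated cases, smaller age differences were not simulated. Spots mix cell types, and 1 section shows 1 plane of an ovary.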
